A study of Mus musculus with 9 samples.

Results

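The BCL2 family decides whether a cell opens the outer membrane of its mitochondria, the committing step of the intrinsic pathway of apoptosis. Pro-survival members hold the pore-forming effectors BAX and BAK in check, and BH3-only members, such as BIM, BID, NOXA and PUMA, release or activate those effectors. Among mouse myeloid cells MCL1 is best known for keeping neutrophils alive, and A1, the product of the Bcl2a1 genes, is known as an NF-kB target that inflammatory stimuli induce.

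The transcripts of 10 BCL2 family genes, chosen by symbol and not by their values, were examined among the 22524 genes counted. They were 4 pro-survival genes (Mcl1, Bcl2, Bcl2l1 and Bcl2a1b), 2 effectors (Bax and Bak1) and 4 BH3-only genes (Bcl2l11, Bid, Pmaip1 and Bbc3). All 10 were found, and all 10 passed the filter on low counts that left 11560 genes for testing. RNA was sequenced from bone marrow-derived macrophages of the C57BL/6 strain, primary macrophages grown from mouse bone marrow for 7 days. The 3 groups had 3 libraries each and are called SRF-KO with LPS (genotype SRF-KO, LPS for 6 h), Control with LPS (wild type, LPS for 6 h) and Control untreated (wild type, no treatment). LPS is a bacterial membrane component sensed by Toll-like receptor 4, and SRF is a transcription factor of immediate-early and cytoskeletal genes. The sources used here do not give how or in which cells Srf was deleted, the LPS dose, or the age and sex of the mice. Untreated SRF-KO cells were not analysed here, so SRF-KO cells could only be compared after LPS.

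Library totals lay between 16987011 and 24912173 counts in SRF-KO with LPS, between 15321839 and 19009123 in Control with LPS and between 15867737 and 17606538 in Control untreated. Srf itself had 34, 24 and 12 counts in SRF-KO with LPS, against 738, 799 and 900 in Control with LPS and 810, 975 and 884 in Control untreated. All 9 macrophage markers passed the filter, and their summed level was 24200 to 24430 CPM (read counts scaled to the adjusted library size) in SRF-KO with LPS, 22990 to 23480 in Control with LPS and 16850 to 17360 in Control untreated. The similar sums of the LPS-treated groups hide opposite directions, since 3 of the 9 markers were higher in SRF-KO with LPS than in Control with LPS (Lyz2, Cd14 and Csf1r) and 6 were lower (median log2 fold change -1.12). Those lower included Fcgr1 (84.2 CPM in SRF-KO with LPS against 1853 in Control with LPS), Mrc1 (6.86 against 58.1 CPM), Mertk (log2 fold change -2.33), Cd68 (553 against 1410 CPM) and Adgre1 (1701 against 3689 CPM), and their part in the results on the BCL2 family was not tested. Neutrophil markers summed to 18.8 to 20.5 CPM in SRF-KO with LPS, 6.34 to 7.33 in Control with LPS and 2.24 to 2.56 in Control untreated. Elane was at 0 throughout, and 3 of 9 passed the filter (S100a8, Camp and S100a9). Most of the sum in LPS-treated cells was S100a8, which averaged 16.1, 5.11 and 0.644 CPM in these groups. Camp had the same order of groups, but S100a9 ran the other way (0.434, 0.566 and 0.883 CPM). Ngp and Ltf, which did not pass the filter, were on average highest in Control untreated. Stromal and endothelial markers summed to 28.0 to 30.2, 20.3 to 26.4 and 1.87 to 2.17 CPM in the same order of groups. Col1a1 was at 0, and in LPS-treated cells most of the sum was Pdgfrb. Of the 3 of 5 that passed the filter, Pdgfrb was higher in SRF-KO with LPS than in Control with LPS (27.4 against 14.8 CPM), and Cdh5 and Pecam1 were lower (log2 fold changes -2.23 and -1.78). The Y-linked genes Uty, Ddx3y, Kdm5d and Eif2s3y had at most 2 counts each in any SRF-KO library, while each had at least 248 in every Control library. Every SRF-KO difference below therefore comes with this difference in Y-linked transcripts, and genotype and sex cannot be told apart. The BCL2 family genes listed here are autosomal. In RNA from whole cultures, fewer cells of a type and less RNA per cell also cannot be told apart.

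Bcl2a1b is shown first because its reads are the hardest to assign. The mouse genome carries near-identical copies on chromosome 9, and Bcl2a1b, Bcl2a1a and Bcl2a1d have coding sequences of 516 bases each. The sequence of Bcl2a1b differed from that of Bcl2a1a at 11 bases (97.9% identity) and from that of Bcl2a1d at 6 bases (98.8%). Of the 12 positions at which any copy differed, 7 fell in the first 150 coding bases, printed here from the GENCODE M21 transcripts (GRCm38) with the differing positions in capitals.
Bcl2a1b: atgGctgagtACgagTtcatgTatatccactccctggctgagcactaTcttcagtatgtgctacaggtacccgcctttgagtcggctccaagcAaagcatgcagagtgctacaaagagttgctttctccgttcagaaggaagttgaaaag
Bcl2a1a: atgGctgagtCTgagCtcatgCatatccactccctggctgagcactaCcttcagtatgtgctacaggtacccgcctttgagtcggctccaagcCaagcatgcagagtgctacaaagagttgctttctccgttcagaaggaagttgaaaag
Bcl2a1d: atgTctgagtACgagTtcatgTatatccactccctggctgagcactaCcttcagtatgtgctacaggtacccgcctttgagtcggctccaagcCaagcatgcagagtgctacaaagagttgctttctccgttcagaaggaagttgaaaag
A read can only be assigned to 1 copy if it spans a position at which the copies differ, in the coding sequence or outside it. Of all 75-base windows of the Bcl2a1b transcript, 43.5% occurred letter for letter in another copy, and of all 100-base windows 31.1% did. These shares leave out Gm29094, a separately counted gene that shares 401 exon bases with Bcl2a1b on the same strand. The sources used here give neither the read length nor the treatment of reads with several matches, so the level of each copy is uncertain, and the fold changes and the pro-survival balance are also given with the 3 copies summed.

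The upstream sequences of the copies are shown because the counts of all 3 were higher after LPS. Over 100 aligned columns that end before the annotated starts of each copy, taken from the RefSeq promoter windows (GRCm38.p6), 94 were identical in all 3 copies. Capitals mark the letters that not all copies carry, and Bcl2a1d is given in its own 5′ to 3′ direction.
Bcl2a1b, chr9:89199065-89199164, plus strand: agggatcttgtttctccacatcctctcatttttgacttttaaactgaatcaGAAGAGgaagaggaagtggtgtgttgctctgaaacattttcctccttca
Bcl2a1a, chr9:88956756-88956855, plus strand: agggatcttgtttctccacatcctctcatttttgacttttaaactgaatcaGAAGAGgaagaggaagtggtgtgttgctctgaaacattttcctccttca
Bcl2a1d, chr9:88731915-88732008, minus strand: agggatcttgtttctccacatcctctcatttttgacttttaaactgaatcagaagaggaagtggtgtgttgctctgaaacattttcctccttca

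SRF binds the CArG box, and promoters of the BCL2 family genes were searched for it on both strands, from 250 bases before to 50 after each RefSeq start. No full CArG box was found in 14 such windows of 9 genes. Genome-wide 1.63% of 32851 windows held one, so 14 windows are too few for its absence to set these genes apart. A match with 1 letter other than A or T in the central stretch occurred in the Mcl1 window, from base -8 to base 2 of the start, and in 8.5% of all windows. It is shown in capitals at the end of chr3:95658573-95658722 (plus strand, GRCm38.p6).
Mcl1: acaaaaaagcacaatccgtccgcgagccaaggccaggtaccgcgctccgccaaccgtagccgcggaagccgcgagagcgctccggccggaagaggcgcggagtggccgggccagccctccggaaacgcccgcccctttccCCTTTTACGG
The NF-kB motif matched in windows of Bcl2l1 and Bbc3 (8.46% of all windows), the p53 motif in that of Bax (8.36%) and the AP-1-like letters TGANTCA in that of Bcl2a1b (7.81%). These are matches of letters in a short window only. The matched windows of Bcl2l1 (chr2:152830668-152830967) and Bbc3 (chr7:16309333-16309632) surround RefSeq starts that lie inside the gene coordinates printed below.

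After LPS, Bcl2a1b and Mcl1 were higher and Bcl2 was lower than in untreated cells, and of the pro-death genes Bak1 and Bid moved most under TMM scaling (log2 fold changes 0.83 and -0.57). With library totals Bid (-1.11) moved most of the pro-death genes, followed by Bbc3 and Pmaip1, and Bak1 (0.28) moved least. Of the 10 genes, 5 were higher and 4 lower in Control with LPS than in Control untreated by edgeR's quasi-likelihood test at a Benjamini-Hochberg adjusted p below 0.05, where 81.7% of all tested genes passed (40.8% higher and 40.8% lower). In 8 of the 10 the libraries of the groups did not overlap, against 82.1% of all tested genes. Among LPS-treated cells, SRF-KO had less transcript than Control for 8 of the 10 genes and more for 2, Bcl2 and Pmaip1. In this comparison 77% of all tested genes passed (39.1% higher and 37.9% lower). No library of one LPS-treated group overlapped the other for any of the 10 genes, as for 78% of all tested genes. The median log2 fold change of the 10 genes was -0.68 in SRF-KO with LPS against Control with LPS, where that of all tested genes was 0.01. Both comparisons use the Control libraries with LPS, so a chance deviation of those libraries moves the 2 comparisons in opposite directions.

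**Figure D1:**
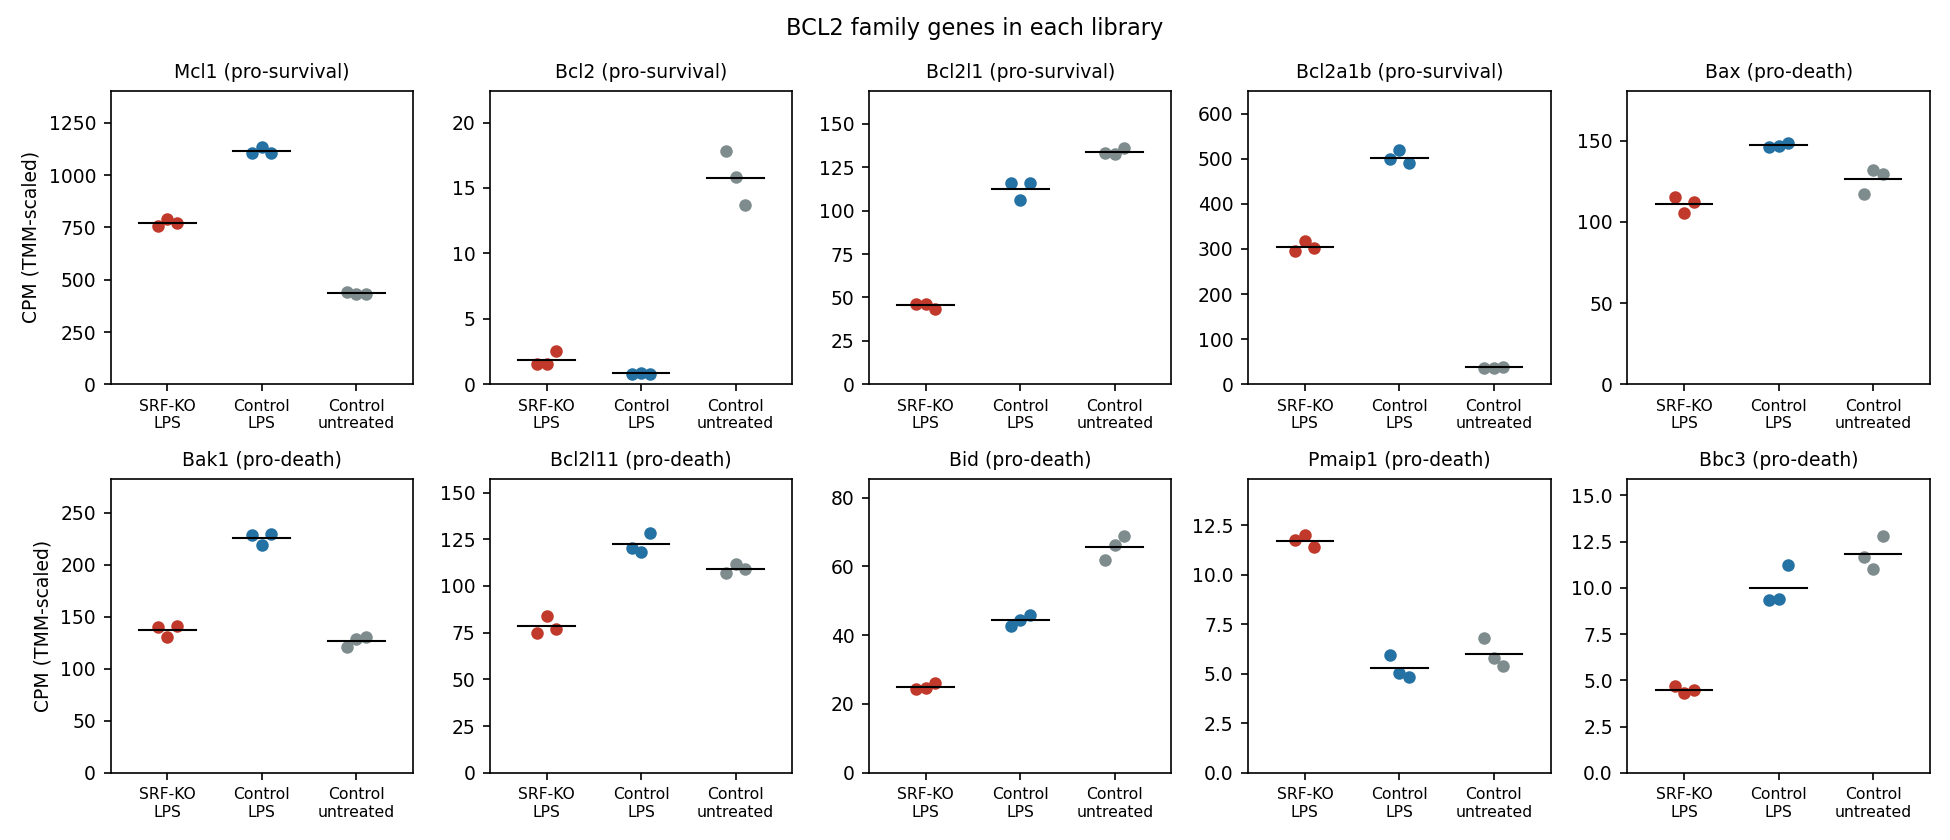
Level of each BCL2 family gene in every library, in CPM on TMM-scaled library sizes (vertical axes start at 0); points are libraries and lines are group means of SRF-KO with LPS, Control with LPS and Control untreated. Bcl2a1b, Mcl1 and Bak1 were highest in Control with LPS, Bcl2 was highest in Control untreated, and Pmaip1 was highest in SRF-KO with LPS.

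Mcl1 (ENSMUSG00000038612, chr3:95658788-95663176, plus strand, GRCm38) encodes a short-lived survival protein. It stood at 756, 790.4 and 769 CPM in SRF-KO with LPS, against 1108, 1136 and 1108 CPM in Control with LPS and 443, 431 and 431 CPM in Control untreated. The 3 groups were fully separated, with SRF-KO cells between the Control groups. The log2 fold change was -0.53 (SE 0.0365, adjusted p = 4.80e-16) in SRF-KO with LPS against Control with LPS. It was 1.36 (SE 0.0374, adjusted p = 6.05e-29) in Control with LPS against Control untreated. SRF-KO cells with LPS still had more Mcl1 than untreated Control cells, by a log2 fold change of 0.83 (SE 0.0370, adjusted p = 6.84e-22).

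Bcl2a1b (ENSMUSG00000089929, chr9:89199209-89207827, plus strand) was the gene of the 10 with the largest rise after LPS. Its level was 296, 318 and 302 CPM in SRF-KO with LPS, against 499, 518 and 489.6 CPM in Control with LPS and 35.2, 37.1 and 39.3 CPM in Control untreated. Again no groups overlapped and SRF-KO cells lay between the Control groups, nearer to Control with LPS. In SRF-KO with LPS against Control with LPS the log2 fold change was -0.72 (SE 0.0391, adjusted p = 3.91e-19). In Control with LPS against Control untreated it was 3.76 (SE 0.0475, adjusted p = 4.72e-40), a 13.5-fold difference. With the counts of Bcl2a1a, Bcl2a1b and Bcl2a1d summed, the 2 values were -0.63 (SE 0.0384) and 4.19 (SE 0.0474). The share of the 3 copies' counts assigned to Bcl2a1b was 65.4% in SRF-KO with LPS, 69.4% in Control with LPS and 93.4% in Control untreated. The annotated gene Gm29094 shares 401 exon bases with Bcl2a1b on the same strand, and it had 4043 to 6139 counts in SRF-KO with LPS, 4604 to 5614 in Control with LPS and 644 to 658 in Control untreated.

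Bcl2l1 (ENSMUSG00000007659, chr2:152780668-152831728, minus strand), the gene of BCL-XL, was, of the 4 pro-survival genes, the lowest in SRF-KO with LPS relative to Control with LPS. It had 46.5, 46.4 and 43.5 CPM in SRF-KO with LPS, 116, 106 and 116 CPM in Control with LPS and 133, 132 and 136 CPM in Control untreated. SRF-KO libraries were far below both Control groups, which did not overlap each other. Against Control with LPS, the SRF-KO log2 fold change was -1.30 (SE 0.0484, adjusted p = 1.73e-24). It was -0.25 (SE 0.0441, adjusted p = 3.02e-06) in Control with LPS against Control untreated, and -0.80 (adjusted p = 4.52e-19) with library totals.

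Bcl2 (ENSMUSG00000057329, chr1:106538178-106714274, minus strand), the founding member of the family, was scarce in all LPS-treated cells. It had 34, 40 and 45 counts in SRF-KO with LPS, 10, 13 and 12 in Control with LPS and 370, 331 and 256 in Control untreated. Scaled for depth these were 1.53, 1.55 and 2.55 CPM in SRF-KO with LPS, 0.806, 0.899 and 0.776 CPM in Control with LPS and 17.9, 15.8 and 13.7 CPM in Control untreated. The groups were separated, and the third SRF-KO library stood above the other 2. Bcl2 was far lower in Control with LPS than in Control untreated (log2 fold change -4.25, SE 0.189, adjusted p = 4.73e-22). It was higher in SRF-KO with LPS than in Control with LPS (log2 fold change 1.13, SE 0.291, adjusted p = 0.000668), with a range of 0.89 to 1.26 when any 1 library was left out. Against Control untreated, SRF-KO cells with LPS were far lower, at a log2 fold change of -3.12 (SE 0.141, adjusted p = 1.01e-21).

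The effectors differed in their response. Bak1 (ENSMUSG00000057789, chr17:27019810-27029009, minus strand), the gene of BAK, had 139.8, 130.3 and 141 CPM in SRF-KO with LPS, 229, 219 and 229.9 CPM in Control with LPS and 121, 129 and 131 CPM in Control untreated. Control with LPS stood above the other groups, which overlapped each other. The log2 fold change was -0.72 (SE 0.0416, adjusted p = 2.53e-18) in SRF-KO with LPS against Control with LPS and 0.83 (SE 0.0420, adjusted p = 2.82e-20) in Control with LPS against Control untreated. Between SRF-KO with LPS and Control untreated it was 0.11 (SE 0.0421, adjusted p = 0.0165), and -0.082 (adjusted p = 0.069) when scaled by library totals.

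Bax (ENSMUSG00000003873, chr7:45461697-45466898, minus strand), the effector that resides mainly in the cytosol until activated, moved less. It had 116, 106 and 112 CPM in SRF-KO with LPS, 146, 147 and 149 CPM in Control with LPS and 117, 132 and 129.7 CPM in Control untreated. Control with LPS was again highest and did not overlap the others. The log2 fold change was -0.41 (SE 0.0452, adjusted p = 2.75e-10) in SRF-KO with LPS against Control with LPS, and -0.05 (adjusted p = 0.296) when scaled by library totals. It was 0.22 (SE 0.0450, adjusted p = 3.04e-05) in Control with LPS against Control untreated, and -0.33 (adjusted p = 1.97e-08) with library totals, so the direction of Bax after LPS depends on the scaling. Ggnbp1 overlaps Bak1 by 437 exon bases on the opposite strand, and it had 312 to 424 counts in SRF-KO with LPS, 217 to 267 in Control with LPS and 280 to 311 in Control untreated.

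Among the BH3-only genes Pmaip1 (ENSMUSG00000024521, chromosome 18) stood out. It encodes NOXA, which binds mainly MCL1 and A1. Pmaip1 had 11.8, 12.0 and 11.4 CPM in SRF-KO with LPS, 5.96, 5.05 and 4.85 CPM in Control with LPS and 6.80, 5.79 and 5.39 CPM in Control untreated. SRF-KO libraries were all above all Control libraries, and the Control groups overlapped. Against Control with LPS, Pmaip1 of SRF-KO cells had a log2 fold change of 1.16 (SE 0.117, adjusted p = 2.22e-11). It was -0.20 (SE 0.132) in Control with LPS against Control untreated, which did not pass (adjusted p = 0.171), although with library totals it was -0.74 and passed.

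Bbc3 (ENSMUSG00000002083, chr7:16308393-16318205, plus strand), the gene of PUMA and like Pmaip1 a known p53 target, was low and went the other way in SRF-KO cells. It had 4.69, 4.30 and 4.48 CPM in SRF-KO with LPS, 9.35, 9.40 and 11.3 CPM in Control with LPS and 11.7, 11.0 and 12.8 CPM in Control untreated. SRF-KO libraries were below all Control libraries, whose groups overlapped. In SRF-KO with LPS against Control with LPS, Bbc3 had a log2 fold change of -1.16 (SE 0.120, adjusted p = 4.12e-11). In Control with LPS against Control untreated it was -0.23 (SE 0.103, adjusted p = 0.0363). That value no longer passed in DESeq2's Wald test (-0.22) or without the third untreated (-0.18), the first LPS-treated or the second LPS-treated Control library (-0.19 each), whereas with library totals it was -0.78 (adjusted p = 7.94e-09).

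Bcl2l11 (ENSMUSG00000027381, chr2:128126038-128162547, plus strand), the gene of BIM, had 74.9, 83.8 and 76.8 CPM in SRF-KO with LPS, 120.4, 118 and 128 CPM in Control with LPS and 107, 112 and 109 CPM in Control untreated. SRF-KO libraries were lowest and no groups overlapped. The log2 fold change was -0.64 (SE 0.0470, adjusted p = 3.70e-15) in SRF-KO with LPS against Control with LPS. It was 0.16 (SE 0.0460, adjusted p = 0.0014) in Control with LPS against Control untreated, and -0.38 (adjusted p = 1.13e-09) with library totals, so its direction after LPS also depends on the scaling.

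Bid (ENSMUSG00000004446, chr6:120891930-120916853, minus strand) links death receptors and caspase-8 to the mitochondrion. It had 24.4, 24.6 and 26.2 CPM in SRF-KO with LPS, 42.5, 44.4 and 46.0 CPM in Control with LPS and 61.9, 66.2 and 69.0 CPM in Control untreated. The groups formed 3 separate steps, with SRF-KO cells lowest. The log2 fold change was -0.83 (SE 0.0614, adjusted p = 5.18e-15) in SRF-KO with LPS against Control with LPS and -0.57 (SE 0.0552, adjusted p = 8.33e-12) in Control with LPS against Control untreated. Bcl2l13 overlaps Bid by 628 exon bases on the opposite strand. It had 800 to 1267 counts in SRF-KO with LPS, 470 to 589 in Control with LPS and 750 to 884 in Control untreated. The library kit keeps strand, per the labels, but the sources used here do not give how counting used it, so a part of the reads of overlapping genes could be assigned to either.

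**Figure D2:**
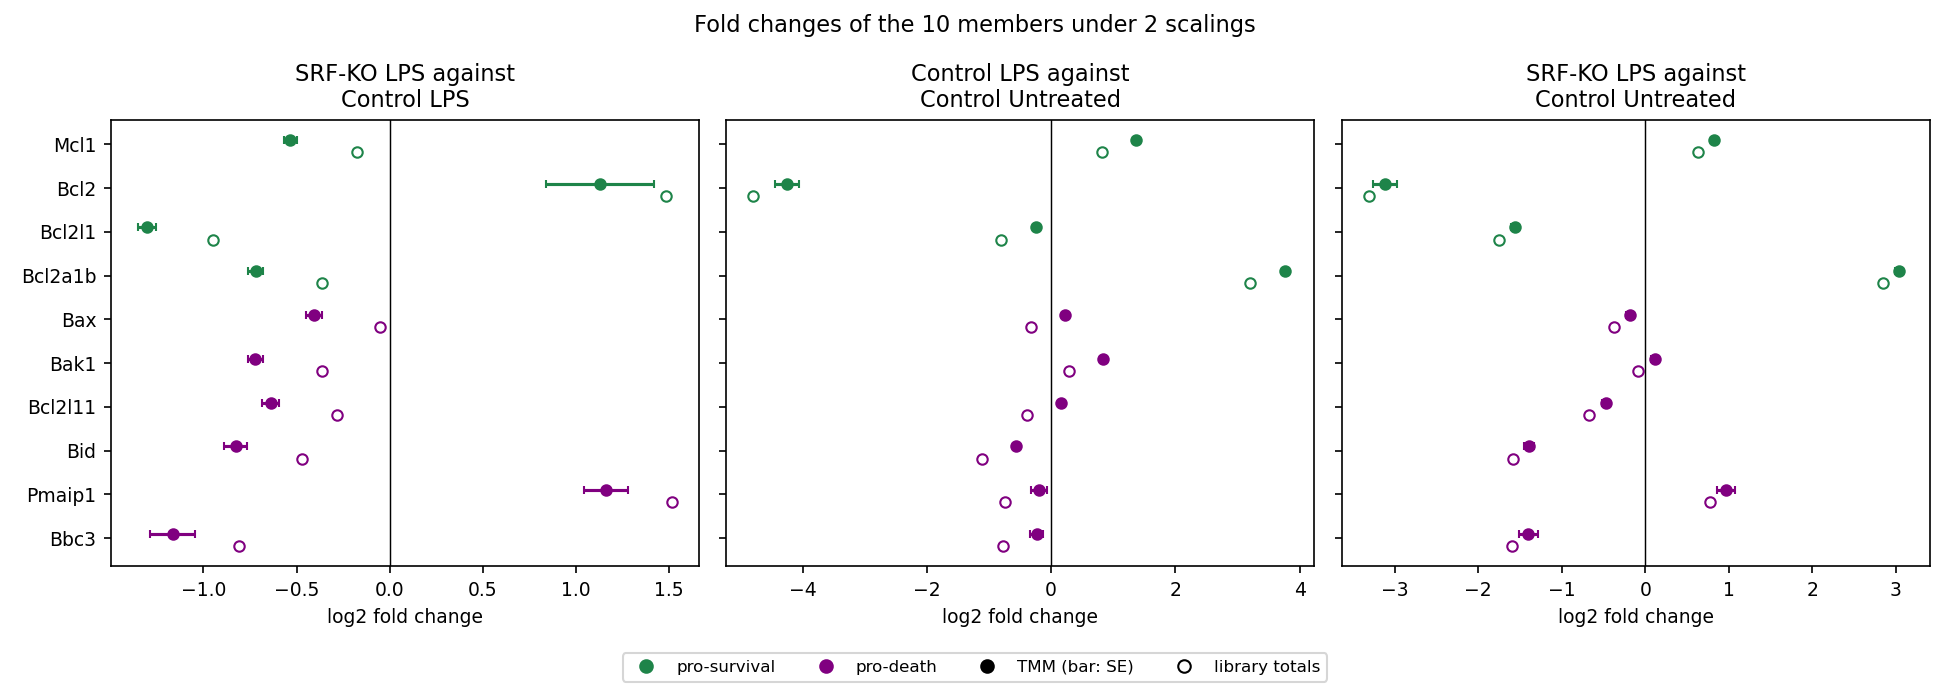
Log2 fold changes of the 10 genes in 3 comparisons, pro-survival in green and pro-death in purple; filled points with bars are TMM-scaled values with their SE and open points are values scaled by library totals. In SRF-KO with LPS against Control with LPS, Bcl2 (1.13) and Pmaip1 (1.16) lie to the right of 0 and the other 8 genes to the left under both scalings.

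Compared with untreated Control cells, SRF-KO cells with LPS had 4 of the 10 genes higher and 6 lower, where 79.5% of all tested genes passed (39.4% higher and 40.1% lower). Those higher were Mcl1 (log2 fold change 0.83), Bcl2a1b (3.04), Pmaip1 (0.97) and Bak1 (0.11), although Bak1 did not pass with library totals. Those lower were Bcl2 (-3.12), Bcl2l1 (-1.56), Bbc3 (-1.40), Bid (-1.39), Bcl2l11 (-0.47) and Bax (-0.18). This comparison joins LPS and genotype, whose parts cannot be told apart in it.

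Scaling bears on all of these values, because TMM factors were 1.038 to 1.039 in SRF-KO with LPS, 0.8098 to 0.8137 in Control with LPS and 1.181 to 1.194 in Control untreated. With library totals alone, the median log2 fold change of all tested genes was 0.37 in SRF-KO with LPS against Control with LPS and -0.57 in Control with LPS against Control untreated. Of the 10 genes, 2 were then higher and 7 lower in SRF-KO with LPS than in Control with LPS, and 3 were higher and 7 lower in Control with LPS than in Control untreated. Among all tested genes the split became 7059 higher and 2434 lower in SRF-KO with LPS, and 2428 higher and 7835 lower in Control with LPS.

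Levels of different genes can be compared only per length, so counts were also divided by the exon length of each gene and rescaled to a common total in each library (TPM). In SRF-KO with LPS the order began with Bcl2a1b (1309 ± 47.4 TPM, SD, n = 3), Mcl1 (792 ± 16.9), Bax (247 ± 11.6) and Bak1 (199.8 ± 8.81). Bcl2l1 (34.8 ± 1.28 TPM) and Bcl2l11 (34.3 ± 2.02 TPM) overlapped next, and Pmaip1 (15.0 ± 0.383) stood above Bbc3 (7.41 ± 0.331), with Bcl2 last (0.719 TPM). In Control with LPS the order was Bcl2a1b (1623 ± 39.2 TPM), Mcl1 (863 ± 8.60), Bak1 (248 ± 7.72) and Bax (246.5 ± 3.08), the last pair overlapping, and Bcl2 was again last (0.238 ± 0.0172 TPM). Here Bbc3 (12.4 ± 1.40 TPM) stood above Pmaip1 (5.11 ± 0.575 TPM), the reverse of SRF-KO cells.

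In Control untreated Mcl1 came first (500.4 ± 12.7 TPM), followed by Bax (315 ± 16.8), Bak1 (207 ± 6.88), Bcl2a1b (179 ± 8.94) and Bcl2l1 (115 ± 2.01). Lowest were Bbc3 (21.9 ± 1.70 TPM), Pmaip1 (8.63 ± 1.13) and Bcl2 (6.78 ± 0.951), of which Pmaip1 and Bcl2 overlapped. Bcl2a1b was thus below Mcl1, Bax and Bak1 without LPS and the most abundant of the 10 transcripts with LPS in either genotype. These ranks hold within the limits of read assignment among its copies and between Bcl2a1b and Gm29094. Gm29094 shares 401 of the 817 exon bases of Bcl2a1b. In Control untreated it had 658, 658 and 644 counts, against 729, 774 and 737 for Bcl2a1b. TPM with those reads added was not computed, so the untreated rank of Bcl2a1b is uncertain.

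**Figure D3:**
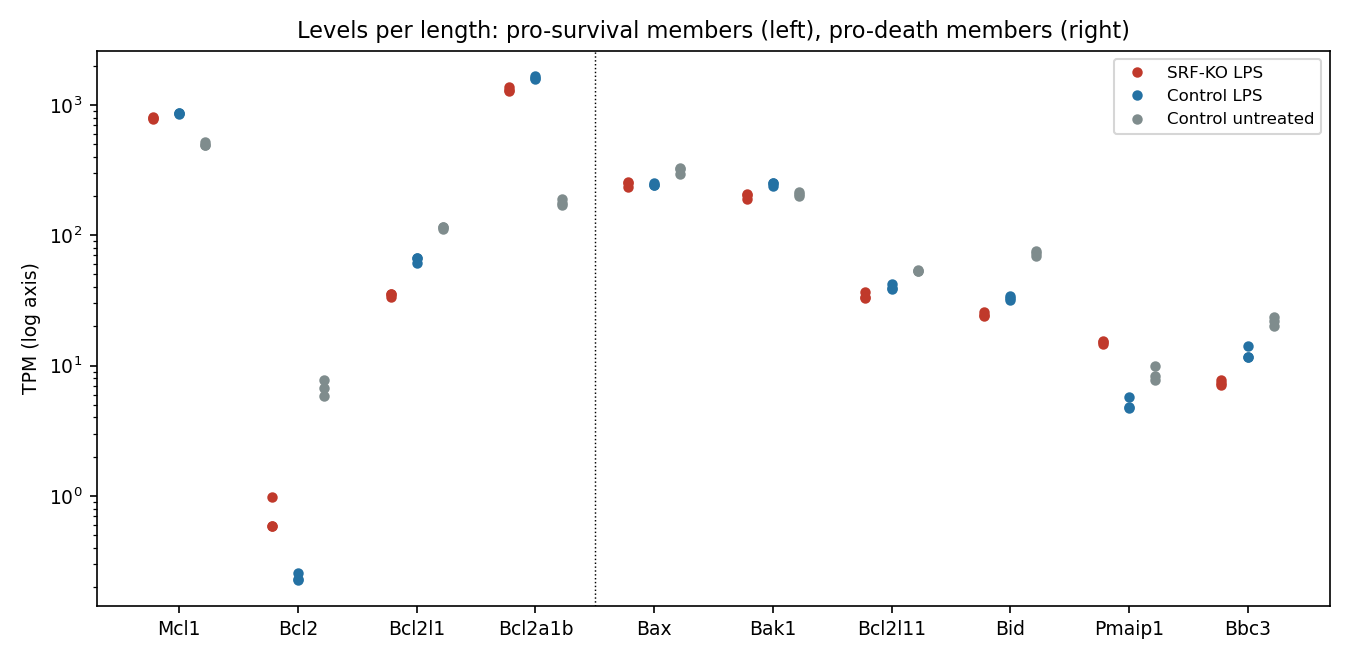
Level per length of each gene in TPM (log axis), 1 point per library, with the pro-survival genes left and the pro-death genes right of the dotted line; within a gene the groups run SRF-KO with LPS, Control with LPS and Control untreated. Bcl2a1b and Mcl1 lie above every pro-death gene in LPS-treated cells of both genotypes, and Bcl2 falls below 1 TPM there.

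Summed per length, the transcripts of the 4 pro-survival genes came to 2137 ± 64.4 TPM in SRF-KO with LPS, 2551 ± 43.6 in Control with LPS and 800.9 ± 11.2 in Control untreated. Those of the 6 pro-death genes came to 529 ± 18.2, 585 ± 13.7 and 678.5 ± 25.6 TPM in these groups. TPM values are not TMM-scaled, so the differences between groups in these sums, unlike ratios within a library, depend on the scaling. Bax and Bak1, which make up most of the pro-death sum, had TMM-scaled log2 fold changes of 0.22 and 0.83 after LPS in Control cells. Of the 6 pro-death genes, 3 were higher, 2 lower and 1 did not pass in that TMM-scaled comparison. Each library's ratio of the pro-survival to the pro-death sum was 3.85, 4.35 and 3.94 in SRF-KO with LPS, 4.34, 4.55 and 4.20 in Control with LPS and 1.25, 1.14 and 1.16 in Control untreated. The LPS-treated groups of the 2 genotypes overlapped in this ratio, and both stood above untreated cells. Without Bcl2a1b the ratio was 1.57 ± 0.0874 in SRF-KO with LPS, 1.59 ± 0.0434 in Control with LPS and 0.918 ± 0.0563 in Control untreated. With Bcl2a1a and Bcl2a1d added it was 5.30 ± 0.357, 5.54 ± 0.202 and 1.20 ± 0.0564 in these groups. Reads assigned to Gm29094, which overlaps Bcl2a1b, were left out of every sum. A ratio of transcript sums treats every transcript as equal, and protein levels were not measured.

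The make-up of the pro-survival sum also differed between groups. Bcl2a1b made 61.3% of it in SRF-KO with LPS, 63.6% in Control with LPS and 22.3% in Control untreated, and Mcl1 made 37.1%, 33.8% and 62.5%. Bcl2l1 made 1.63% in SRF-KO with LPS, 2.54% in Control with LPS and 14.3% in Control untreated. Bcl2 and Bcl2l1 together, divided by the pro-death sum, gave 0.0672 ± 0.00358 in SRF-KO with LPS, 0.111 ± 0.00416 in Control with LPS and 0.1795 ± 0.00910 in Control untreated, with no overlap between groups. Within the BH3-only sum, Pmaip1 made 18.5% ± 0.495 in SRF-KO with LPS, against 5.65% ± 0.796 in Control with LPS and 5.52% ± 0.821 in Control untreated.

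**Figure D4:**
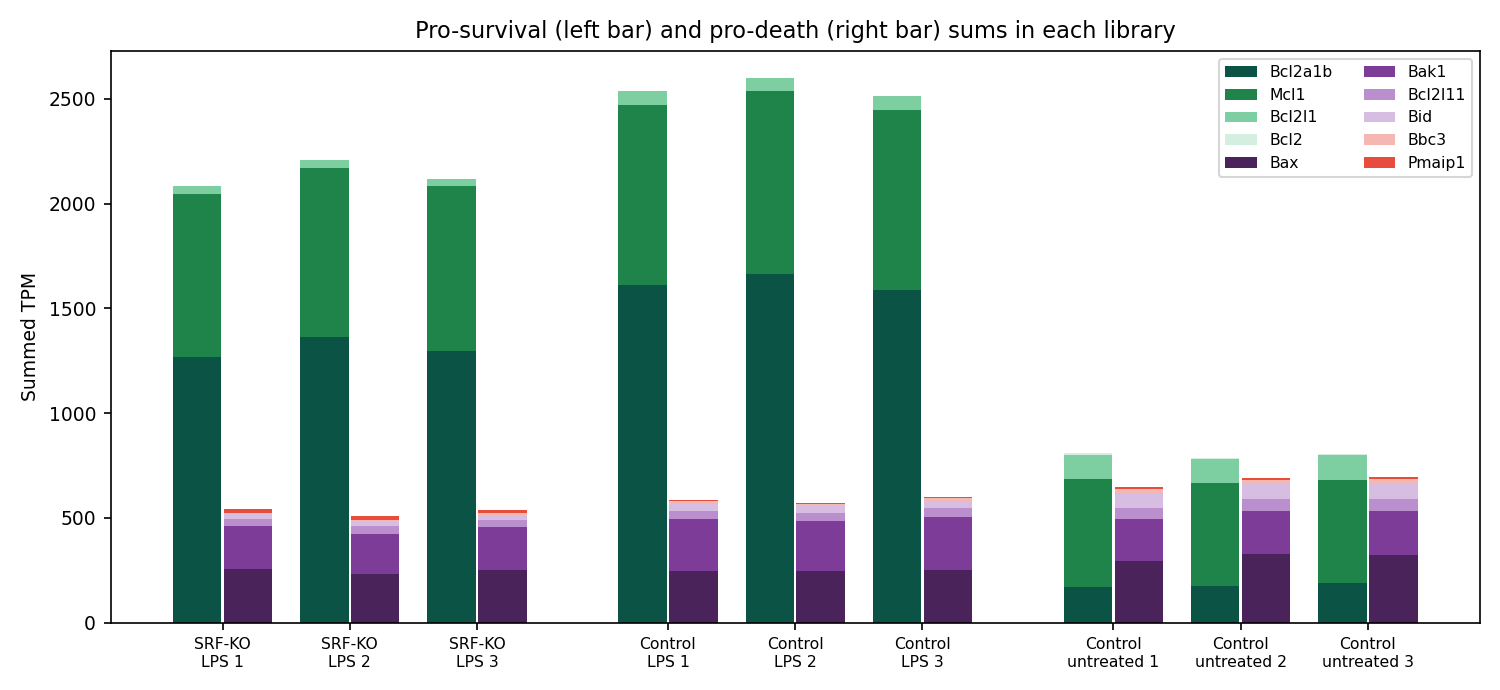
TPM of the pro-survival genes and of the pro-death genes stacked for each library, in the order SRF-KO with LPS, Control with LPS and Control untreated (vertical axes start at 0). Pro-survival stacks average 2137, 2551 and 800.9 TPM and consist mainly of Bcl2a1b and Mcl1, while pro-death stacks average 529, 585 and 678.5 TPM and consist mainly of Bax and Bak1. TPM values are not TMM-scaled, so differences in stack height between groups depend on the scaling.

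Ratios of 2 genes' read counts within a library do not depend on scaling between libraries, and they showed which pairs shifted. Mcl1 over Pmaip1 was 64.3, 65.9 and 67.5 in SRF-KO with LPS, 186, 225 and 228 in Control with LPS and 65.1, 74.4 and 80.0 in Control untreated. SRF-KO cells with LPS thus lay far below Control cells with LPS and overlapped untreated cells. Pmaip1 over Bbc3 was 2.51, 2.79 and 2.54 in SRF-KO with LPS, against 0.638, 0.537 and 0.431 in Control with LPS and 0.583, 0.526 and 0.421 in Control untreated, where the Control groups overlapped.

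The other pairs differed less between the LPS-treated groups. Mcl1 over Bcl2l11 averaged 9.85 ± 0.364 in SRF-KO with LPS, 9.14 ± 0.484 in Control with LPS and 3.985 ± 0.138 in Control untreated, and the LPS-treated groups overlapped. Bcl2a1b over Bcl2l11 averaged 3.89, 4.11 and 0.3405 in these groups. Mcl1 over Bak1 averaged 5.64 ± 0.369 in SRF-KO with LPS, 4.95 ± 0.205 in Control with LPS and 3.435 ± 0.200 in Control untreated. That ratio was highest in SRF-KO cells, without overlap between groups. Bcl2l1 over Bak1 was 0.332 ± 0.0238 in SRF-KO with LPS, 0.498 ± 0.0125 in Control with LPS and 1.06 ± 0.0398 in Control untreated, and Bcl2l1 over Bax was 0.410 ± 0.0266, 0.765 ± 0.0382 and 1.06 ± 0.0677. Both BCL-XL ratios were lowest in SRF-KO cells, without overlap between groups.

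**Figure D5:**
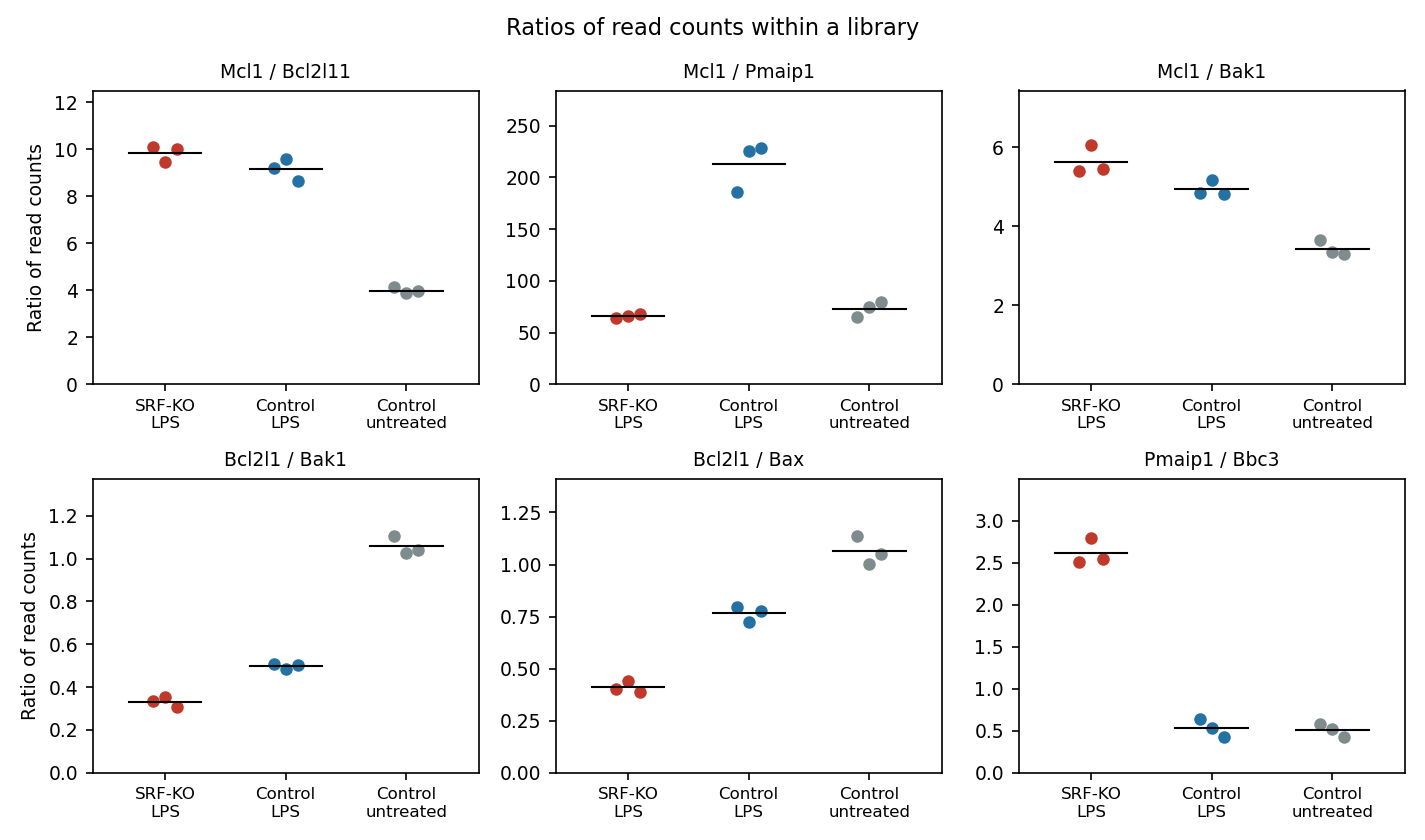
Ratios of read counts of gene pairs within each library (vertical axes start at 0); points are libraries and lines are group means of SRF-KO with LPS, Control with LPS and Control untreated. Mcl1 over Pmaip1 averages 65.9, 213 and 73.2 and Pmaip1 over Bbc3 averages 2.62, 0.535 and 0.510 in these groups.

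The genes most alike in profile were found from the group means of log2 CPM, centred on each gene, by Euclidean distance over the 3 groups. Bcl2l1 and Bbc3, one pro-survival and one pro-death, were nearest to each other (distance 0.145). Bax and Bcl2l11 followed (0.221), and Bid was nearest to Bbc3 (0.261). Bcl2 (2.49 from Bid), Bcl2a1b (1.88 from Mcl1) and Pmaip1 (1.13 from Bax) had no near neighbour among the 10. A profile over 3 group means is a short description.

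Of 15 other BCL2 family genes, 9 passed the filter on low counts. In SRF-KO with LPS against Control with LPS, 3 were higher, 5 lower and 1 did not pass, with a median log2 fold change of -0.14 (0.21 with library totals, when 5 were higher and 1 was lower). In Control with LPS against Control untreated, 6 were higher, 2 lower and 1 did not pass, with a median of 0.76 (5 higher and 3 lower with library totals, median 0.21). The copies Bcl2a1a and Bcl2a1d were, like Bcl2a1b, higher after LPS (log2 fold changes 6.50 and 6.35). Bcl2a1a averaged 30.9 ± 1.50 CPM in SRF-KO with LPS, 57.5 ± 1.34 in Control with LPS and 0.629 ± 0.0827 in Control untreated. Bcl2a1d had 131, 137 and 123 CPM in SRF-KO with LPS, 165, 165 and 161 in Control with LPS and 1.74, 2.44 and 1.81 in Control untreated, and its log2 fold change of -0.33 in SRF-KO cells was 0.03 with library totals and then did not pass.

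The mitophagy receptors Bnip3 and Bnip3l, BH3-like relatives, were higher in SRF-KO cells. Bnip3 averaged 283 ± 14.7 CPM in SRF-KO with LPS, 219 ± 14.4 in Control with LPS and 29.4 ± 1.10 in Control untreated. Bnip3l averaged 129.8 ± 4.67, 67.6 ± 1.68 and 39.6 ± 1.86 CPM in these groups, a log2 fold change of 0.94 in SRF-KO with LPS against Control with LPS. Bmf, a BH3-only gene, averaged 4.41 CPM in SRF-KO with LPS, 3.88 in Control with LPS and 12.5 in Control untreated, and the LPS-treated groups did not differ past the threshold (log2 fold change 0.16, adjusted p = 0.378), except with library totals (0.51, adjusted p = 0.00425). Bcl2l2, the gene of the survival protein BCL-W, had a log2 fold change of -0.14 in SRF-KO with LPS against Control with LPS, which was 0.21 with library totals. Bcl2l10 and Hrk had 0 counts in all 9 libraries.

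Genes that act up- and downstream were read from lists, as counts passing in each direction and medians of log2 fold changes. Of 16 apoptosome and caspase genes, 4 were higher and 9 lower in SRF-KO with LPS than in Control with LPS (median -0.31), and with library totals 6 were higher and 5 lower (median 0.04). After LPS in Control cells 10 were higher and 3 lower than without it (median 0.40), and with library totals 6 were higher and 8 lower (median -0.15). Cycs, the gene of cytochrome c, averaged 44.9 CPM in SRF-KO with LPS, 95.5 in Control with LPS and 43.1 in Control untreated. Apaf1, the scaffold of the apoptosome, had log2 fold changes of -0.50 in SRF-KO with LPS against Control with LPS and 1.03 in Control with LPS against Control untreated, and Aifm1, an X-linked gene of a mitochondrial flavoprotein, of 1.25 and -0.62 in the same 2 comparisons.

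The death receptor arm meets the BCL2 family at Bid. Of its 10 listed genes, 2 were higher and 6 lower in SRF-KO with LPS than in Control with LPS (median -0.44), and with library totals 4 were higher and 4 lower (median -0.09). Between Control with LPS and Control untreated, 7 were higher and 2 lower (median 1.13), and with library totals 6 were higher and 3 lower (median 0.58). Casp8, the protease that cleaves BID, averaged 123 CPM in SRF-KO with LPS, 269.6 in Control with LPS and 91.3 in Control untreated. Cflar, the gene of its inhibitor c-FLIP, averaged 459, 967 and 131 CPM, and Fas, a death receptor, averaged 45.4, 41.0 and 1.77 CPM. Tnfrsf1a, a receptor of TNF, had log2 fold changes of -0.75 and 1.22 in the 2 comparisons. Birc3, the gene of the ubiquitin ligase cIAP2, had -0.44 and 2.95, of which the SRF-KO value did not pass with library totals (-0.082, adjusted p = 0.0653).

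Of 11 tested p53 targets other than Pmaip1, Bbc3 and Bax, 2 were higher and 6 lower in SRF-KO with LPS than in Control with LPS (median -0.40), and with library totals 5 were higher and 5 lower (median -0.04). After LPS in Control cells 2 were higher and 6 lower (median -0.30), and with library totals 1 was higher and 9 were lower. Cdkn1a, the gene of the cell cycle inhibitor p21, averaged 492.5 CPM in SRF-KO with LPS, 1181 in Control with LPS and 338 in Control untreated, so it was lower in SRF-KO cells like Bbc3 and unlike Pmaip1. Among SRF-KO against Control cells with LPS, Plk2, a polo-like kinase, had a log2 fold change of 1.24, Sesn1, a stress-induced sestrin, of -1.10, and Ccng1, cyclin G1, of -0.85. For LPS in Control cells the values were -2.98 for Plk2, -2.52 for Sesn1 and 0.06 for Ccng1, which did not pass.

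Of 12 tested transcription factors known to act on BCL2 family genes, 5 were higher and 4 lower in SRF-KO with LPS than in Control with LPS (median 0.19), and with library totals 8 were higher and 3 lower (median 0.55). Between Control with LPS and Control untreated, 6 were higher and 5 lower (median 0.01), and with library totals 5 were higher and 7 lower (median -0.54). Stat3, a regulator of Mcl1 and Bcl2l1, averaged 347, 700.4 and 124.5 CPM in SRF-KO with LPS, Control with LPS and Control untreated. Nfkb1, which encodes an NF-kB subunit, averaged 667, 487 and 122 CPM. Relb, another NF-kB subunit, had log2 fold changes of -0.72 and 1.74 in the 2 comparisons, and Ddit3, the gene of the stress factor CHOP, of -0.96 and -0.12, the second of which did not pass.

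MCL1 protein turns over quickly, so transcripts of 6 genes that control its ubiquitination or stability were read as well. Of these, 4 were higher and 2 lower in SRF-KO with LPS than in Control with LPS (median 0.15, and 0.51 with library totals, when 4 were higher and 1 lower). After LPS in Control cells 3 were higher and 1 lower (median 0.14), and with library totals 1 was higher and 4 were lower (median -0.41). Huwe1, an X-linked ubiquitin ligase of MCL1, had log2 fold changes of 0.84 and -0.37 in the 2 comparisons, and Btrc, the gene of another ligase subunit, of -0.69 and 0.91. Usp9x, an X-linked deubiquitinase of MCL1, had 0.12 and 0.56, of which the LPS value was 0.014 with library totals and did not pass. Mapk8, the gene of the kinase JNK1, had 0.56 and 0.27, of which the LPS value was -0.28 with library totals.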

How the data were processed

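Each deposited file lists raw whole-number read counts for 22524 Ensembl genes in 1 library, per the file headers, with no normalization by the authors. GRCm38 is the build in the submitters' processing notes, which list featureCounts, STAR (2.5.4b), edgeR, Trimmomatic and bcl2fastq (2.19). Titles gave the group and replicate number of the 9 libraries. Nothing in the labels says that replicates were separate animals or cultures, so the p-values cover the spread among these libraries alone, and that spread may be technical.

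In R 4.3.3 with edgeR 4.0.16, genes kept by filterByExpr (11560) were scaled by TMM and fitted in 1 robust quasi-likelihood model of the 3 groups. Adjusted p-values are Benjamini-Hochberg over all tested genes of a comparison, with a threshold of 0.05. SEs were derived from the fold change and F statistic. TPM used the counts and GENCODE M21 exon length. DESeq2 1.42.0 was an alternative, and the steps were tested on simulated counts. Genes outside the 10 were named by their smallest p in each list, or as BCL2 relatives. Of those, 1 gene is not reported here. The 10 genes, the lists and the naming rule were chosen with earlier results of these data known.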

Additional observations from a re-analysis of the deposited data

How the results depend on the processing

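Fold changes of the 10 genes were recomputed with other scalings, filters, fits and left-out libraries. Of 483 recomputed values, 471 kept their direction and their side of the threshold, 8 no longer passed, 1 newly passed and 3 reversed. The reversals all came with library totals in place of TMM, for Bax (-0.33) and Bcl2l11 (-0.38) in Control with LPS against Control untreated and for Bak1 (-0.082) in SRF-KO with LPS against Control untreated. Bak1 in that comparison also stopped passing without SRF-KO replicate 1 or 3 or untreated replicate 1. The number of the 10 genes passing with 1 library left out was always 10 in SRF-KO with LPS against Control with LPS, 8 to 9 in Control with LPS against Control untreated, and 9 to 10 in SRF-KO with LPS against Control untreated. All tested genes passing ranged from 8548 to 9019, 9156 to 9531 and 8921 to 9268 in these comparisons. Deviations of same-numbered libraries from their group means correlated between -0.0746 and 0.0971. Differently numbered libraries were not set beside them, so these values cannot decide whether replicate numbers pair the samples. With the number as a block, 8919, 9467 and 9231 genes and 10, 9 and 10 of the 10 genes passed. Summing the Bcl2a1 copies was chosen after seeing the data. Depth limits Bcl2 most, with 10 to 13 counts in a Control library with LPS.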
